A study of Mus musculus with 14 samples.

Results

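The genes described here are 10 genes typical of the long-lived, *Folr2*- and *Lyve1*-expressing macrophages that lie along vessels in many tissues: *F13a1*, *Folr2*, *Lyve1*, *Fcna*, *Ednrb*, *Pmp22*, *Cbr2*, *Selenop*, *Gas6* and *Cavin1*. They are 10 of the 24982 genes in the count table, where they are listed as F13A1, FOLR2, LYVE1, FCNA, EDNRB, PMP22, CBR2, SELENOP, GAS6 and CAVIN1, and all 10 were among the 13136 genes that passed the filter on low counts. The genes were chosen by name and because several were lower in *Il10ra*-deficient libraries, and lower still in double-knockout libraries, in these same counts. All 3 differences between genotypes are therefore a description for these genes. Where the text counts how many of them passed in the fit over all genes, or gives intervals from it, nothing is read from that, and a direction among them is not a finding.

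RNA from sorted macrophages of the colon and cecum lamina propria of mice aged 5 weeks was sequenced in 14 libraries. The sort took live CD45+ cells that were Ly6G-, CD103-, CD64+, CD11b+, MHCII+ and Ly6C-, the gate for mature macrophages. All mice were C57BL/6 and carried *Cdcs1*, a locus that raises susceptibility to colitis. By the labels, 5 mice had *Cdcs1* alone and are called WT. A further 4 were *Il10ra* -/- (IL10RAKO), 4 were both *Il10ra* -/- and *Ccr2* -/- (DKO), and 1 was *Ccr2* -/- alone (CCR2KO). Both deletions were present in every cell of the body from birth, so the macrophages of IL10RAKO and DKO mice also came from a colon without the receptor in its other cells. The study reported colitis at this age in mice lacking *Il10ra*, less severe where *Ccr2* was lacking too. It reported no histological colitis in wild-type mice or mice lacking *Ccr2* alone. Loss of *Il10ra* and an inflamed colon therefore cannot be told apart here. The labels give neither sex, litter nor batch. The authors' normalized table holds 4 mice each of WT (mice 4, 5, 10 and 13), IL10RAKO (mice 1, 2, 7 and 8) and DKO (mice 3, 9, 12 and 14), and these 12 libraries were compared. WT mouse 11, which that table leaves out without a stated reason, and CCR2KO mouse 6 are given as single libraries.

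IL-10 is a cytokine that restrains macrophage activation through a receptor that contains IL10RA. CCR2 is the chemokine receptor by which monocytes leave the bone marrow and enter tissues. Gut macrophages are for the most part replaced from blood monocytes, while a smaller long-lived population persists near vessels, nerves and the submucosa and is known for scavenger receptors, hyaluronan and folate receptors and secreted factors that aid the clearance of dying cells. The sorted cells carry no record of their position, so "perivascular" is only the name under which such genes are known.

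Between 13085287 and 21216468 reads were counted per library in the 12 libraries compared. Levels are in CPM, counts scaled to a common library size, here with TMM factors, and 3 reads corresponded to 0.141 to 0.229 CPM before those factors. *Il10ra* lay between 217 and 380 CPM in the 4 WT mice and between 3.41 and 11.2 CPM in the IL10RAKO and DKO mice, and *Ccr2* lay between 3.92 and 6.68 CPM in DKO mice and at 4.30 in the CCR2KO mouse. The 12 genes of a macrophage marker list (*Adgre1*, *Cd68*, *Csf1r*, *Fcgr1*, the 3 C1q chains, *Cx3cr1*, *Itgam*, *H2-Ab1*, *H2-Aa* and *Cd74*) were read in all libraries and summed to between 49790 and 83030 CPM in the 12 libraries. In DKO mice, 2 of these 12, *Adgre1* and *Cx3cr1*, were lower than in WT (log2 fold change -1.05, adjusted p = 0.0238, and -1.21, adjusted p = 0.0162, edgeR quasi-likelihood test), and in IL10RAKO mice *Fcgr1* and *H2-Ab1* were higher (0.83, adjusted p = 0.0304, and 0.61, adjusted p = 0.0285). These 4 were named after their values were seen. In bulk RNA, fewer cells of a type and less RNA per cell cannot be told apart, which applies to every level below.

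All 10 genes were lower in IL10RAKO and in DKO mice than in WT mice, and no mouse of either genotype reached the lowest WT mouse for any of them. The median log2 fold change over the 10 genes was -4.43 in IL10RAKO (range -5.54 to -1.39) and -5.23 in DKO (range -6.79 to -2.02), beside -0.07 and -0.06 over all 13136 tested genes. All 10 passed an adjusted p-value of 0.05 as lower in IL10RAKO, where 7.10% of tested genes did, and all 10 in DKO, where 9.22% did; the choice of the genes used these contrasts, so nothing is read from these counts. The share of tested genes with all mice of the knockout genotype below all WT mice was 8.78% for IL10RAKO and 11.0% for DKO. Of the 10 genes, 9 were at least 8-fold lower in both genotypes, as were 2.73% of tested genes in IL10RAKO and 2.59% in DKO, and *Selenop* was the exception. Both comparisons use the same WT mice.

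**Figure D1:**
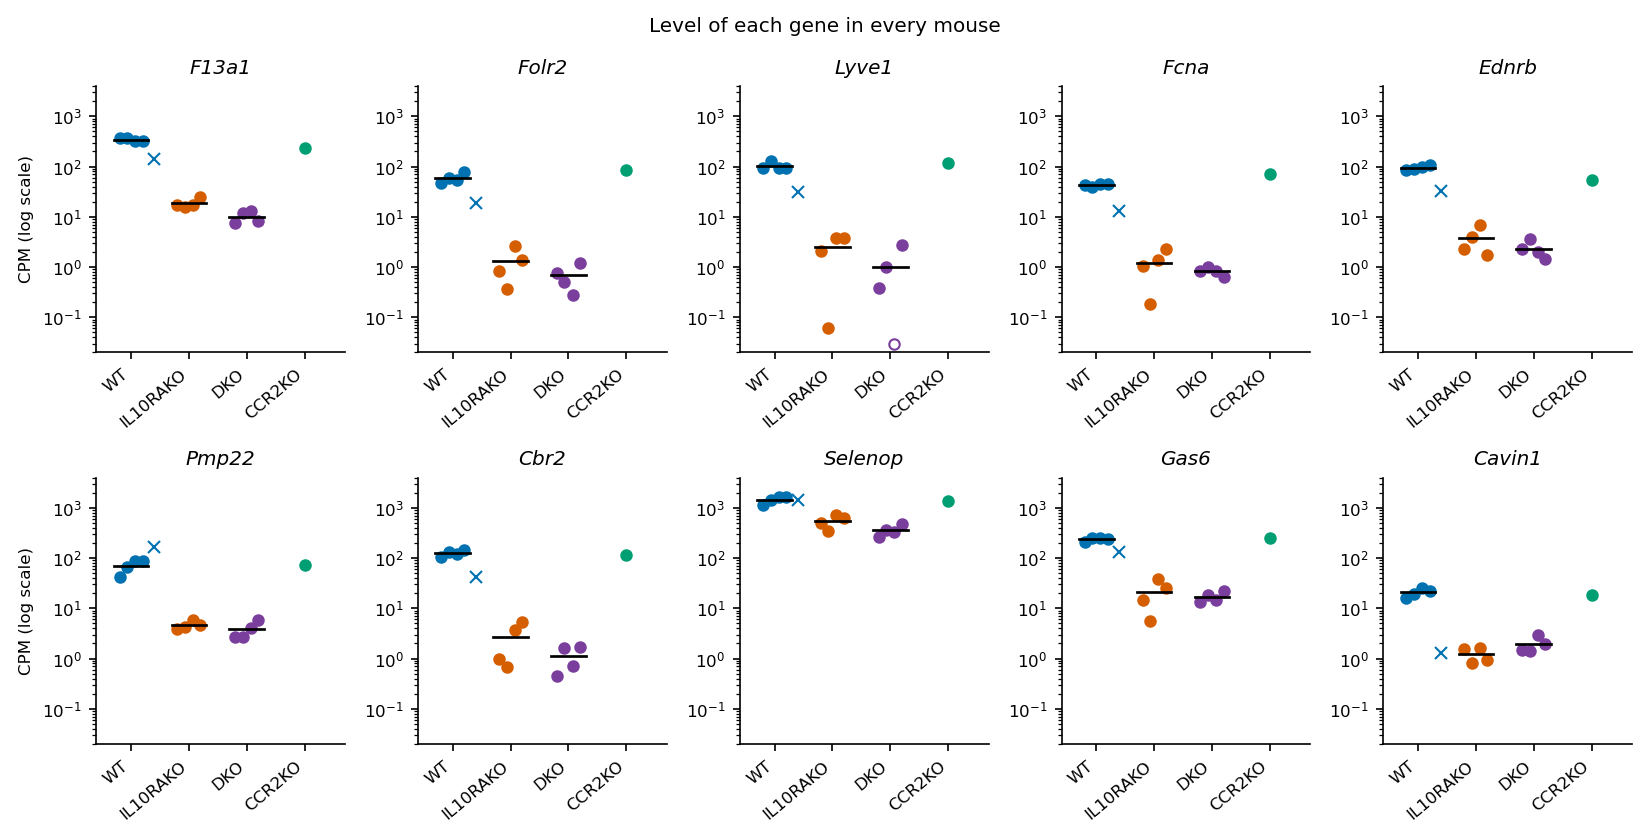
Level of each of the 10 genes in every mouse, in CPM on a log axis, by genotype. Filled points are single mice, bars are the means of 4 mice, crosses are WT mouse 11, which is not in the WT mean, and the open point at the foot of the *Lyve1* panel is DKO mouse 12 with 0 reads. In all 10 panels the IL10RAKO and DKO points lie below the 4 WT points, and the CCR2KO point lies above all IL10RAKO and DKO points.

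Levels of different genes can be compared only relative to transcript length. In RPKM, taken here as CPM divided by the exonic length in kilobases, *Selenop* was the highest in WT mice at 508.8 ± 79.9 (mean ± SD, n = 4), followed by *Cbr2* at 94.4 ± 13.2 and *Gas6* at 93.5 ± 8.16, which did not differ beyond their spread. *F13a1* (51.1 ± 3.60), *Folr2* (38.9 ± 8.80), *Lyve1* (34.8 ± 6.19), *Fcna* (31.1 ± 1.72), *Pmp22* (29.9 ± 9.04) and *Ednrb* (22.4 ± 2.17) came next, and each overlapped its neighbour in the ranges of the 4 mice. *Cavin1* was the lowest at 5.77 ± 1.19. On this per-length scale *Selenop* remained the highest in IL10RAKO (193.5 ± 59.7) and DKO (125.6 ± 31.3), and *Gas6* was next at 8.18 ± 5.48 and 6.66 ± 1.48. The other 8 genes lay between 0.340 and 2.77 in IL10RAKO and between 0.351 and 1.61 in DKO.

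The sequence upstream of RefSeq start sites was available for 9 of the 10 genes, in 17 windows of 250 bases on GRCm38.p6, the patched release of the mm10 assembly the counts were made on. Each was searched on both strands for the letters of motifs bound by factors of macrophages or of IL-10 signalling. TTCNNNGAA, a STAT motif, was in 0 of the 17 windows and in 7.02% of all 32851 windows of the table. GAGGAAG, a PU.1 motif, was in 5 windows of 4 genes (*Cbr2*, *F13a1*, *Fcna* and *Selenop*) and in 10.6% of all windows; the *Selenop* windows overlap and share a match. TGCTGAC, a MAF motif, was in 2 windows (*Fcna* and *Pmp22*, 3.81% of all), TGANTCA, an AP-1 motif, in 1 window of *Folr2* (6.75% of all), and the E-box CACGTG in 0 (6.02% of all). Some RefSeq starts lie inside the annotated gene, so that their windows lie partly or wholly within it. The matches of *Selenop*, *Cbr2*, *Pmp22* and *Folr2* lie within the annotated gene, and only those of *F13a1* and *Fcna* lie upstream of it. A match is a description of these letters and not a bound site, and its absence says only that the letters are not in these windows. The upstream stretches of *F13a1* and *Fcna* are shown because they hold matches next to the annotated gene start, and that of *Folr2* because its window at that start holds none; capitals mark PU.1 letters, apart from TGCTGAC in *Fcna*, where a pair of the PU.1 matches shares a base. They come from RefSeq, read 5′ to 3′ on the minus strand, at chr13:37050245-37050494, chr2:25628031-25628224 and chr7:101857195-101857440.
F13a1: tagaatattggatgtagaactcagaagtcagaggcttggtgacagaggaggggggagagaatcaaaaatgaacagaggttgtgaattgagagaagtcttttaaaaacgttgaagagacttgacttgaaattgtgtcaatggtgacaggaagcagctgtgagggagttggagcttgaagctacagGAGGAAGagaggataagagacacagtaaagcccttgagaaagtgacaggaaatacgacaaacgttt
Fcna: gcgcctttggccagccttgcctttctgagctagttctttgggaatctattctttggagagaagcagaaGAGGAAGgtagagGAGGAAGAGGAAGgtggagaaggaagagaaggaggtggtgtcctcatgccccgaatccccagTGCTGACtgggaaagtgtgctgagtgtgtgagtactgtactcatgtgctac
Folr2: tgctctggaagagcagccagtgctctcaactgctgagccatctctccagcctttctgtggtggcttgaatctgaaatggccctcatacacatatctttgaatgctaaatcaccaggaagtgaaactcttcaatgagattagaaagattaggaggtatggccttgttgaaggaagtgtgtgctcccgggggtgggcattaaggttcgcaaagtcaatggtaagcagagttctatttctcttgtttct

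The surface receptors come first. *Folr2* encodes folate receptor beta, which binds folate at the surface of macrophages, and lies at chr7:101839988-101857194. It was at 47.8, 59.1, 54.4 and 79.3 CPM in WT mice 4, 5, 10 and 13. IL10RAKO mice 1, 2, 7 and 8 had 0.835, 0.374, 2.63 and 1.39 CPM, from 6 to 52 reads. DKO mice 3, 9, 12 and 14 had 0.773, 0.498, 0.281 and 1.19 CPM, from 4 to 24 reads. The knockout mice were all far below the WT mice, and the IL10RAKO and DKO mice overlapped. The means of WT, IL10RAKO and DKO mice were 60.1 ± 13.6, 1.31 ± 0.975 and 0.685 ± 0.390 CPM (SD, n = 4 each), and the log2 fold changes of IL10RAKO and DKO against WT were -5.48 (SE 0.48) and -6.40 (SE 0.51). Without IL10RAKO mouse 7 the first was -6.11. An antisense gene, *Gm10602*, shares 63.1% of the exonic bases of *Folr2*, and reads from the pair cannot be told apart if the counting ignored strand, which the sources do not say. The other carriers of folate in the partner list, *Slc19a1* and *Slc46a1*, did not pass the test in any comparison.

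*Lyve1* encodes a hyaluronan receptor of lymphatic endothelium and of resident macrophages and lies at chr7:110850607-110863239. The WT values were 93.2, 128.8, 92.9 and 92.0 CPM, in the order of the mice above. Among IL10RAKO mice the levels were 2.09, 0.0623, 3.84 and 3.83 CPM, and mouse 2 owed its value to 1 read. The DKO levels were 0.387, 0.996, 0 and 2.72 CPM, with no read in mouse 12, which allows up to 0.214 CPM there. WT mouse 5 stood above the other 3 WT mice, which lay within 92.0 and 93.2 CPM, and the IL10RAKO and DKO mice overlapped. The means were 101.7 ± 18.1, 2.46 ± 1.80 and 1.03 ± 1.20 CPM (SD, n = 4 each), and the log2 fold changes against WT were -5.36 (SE 0.78) and -6.56 (SE 0.84), the widest errors among the 10 genes. Without DKO mouse 14, the highest of its genotype, the second of these was -7.73. *Cd44*, the other hyaluronan receptor on the partner list, did not pass in any comparison. When libraries were scaled by their totals without TMM, it passed as lower in DKO against WT (adjusted p = 0.0104, edgeR quasi-likelihood test).

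*Ednrb* encodes the endothelin B receptor, a G protein-coupled receptor, and lies at chr14:103814625-103844402. WT mice had 87.1, 88.8, 98.8 and 106.9 CPM. The IL10RAKO levels were 2.30, 3.99, 6.93 and 1.72 CPM. In DKO mice they were 2.26, 3.61, 1.97 and 1.43 CPM. IL10RAKO mouse 7 was the highest of the knockout mice, and the remaining IL10RAKO mice lay among the DKO mice or close to them. The means were 95.4 ± 9.25, 3.73 ± 2.34 and 2.32 ± 0.927 CPM (SD, n = 4 each), and the log2 fold changes against WT were -4.66 (SE 0.39) and -5.37 (SE 0.41). The ligand *Edn1* was low and did not pass (3.44 ± 3.99, 5.26 ± 2.00 and 5.77 ± 2.59 CPM), and the second receptor, *Ednra*, was at 1.11 ± 1.79 CPM or less on average and was not tested. *Ece1*, which converts the endothelin precursors, rose in IL10RAKO (log2 fold change 0.73, SE 0.19, adjusted p = 0.0173) and in DKO (0.58, SE 0.19, adjusted p = 0.0476, edgeR quasi-likelihood test), and passed in neither when libraries were scaled by their totals without TMM.

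The secreted or released factors come next. *F13a1* encodes the A subunit of coagulation factor XIII, a transglutaminase that cross-links fibrin, and lies at chr13:36867178-37050244. WT mice had 367.8, 362.0, 321.6 and 324.8 CPM. The IL10RAKO mice had 17.5, 15.5, 16.9 and 24.8 CPM. The DKO mice had 7.67, 11.6, 13.0 and 8.16 CPM. Each genotype formed its own range without overlap, with the 4 DKO mice below the 4 IL10RAKO mice, and *F13a1* was the only one of the 10 genes for which these genotypes did not overlap. The means were 344.1 ± 24.2, 18.7 ± 4.14 and 10.1 ± 2.61 CPM (SD, n = 4 each), which put IL10RAKO at 5.43% and DKO at 2.94% of WT. The log2 fold change was -4.20 (SE 0.22) in IL10RAKO and -5.09 (SE 0.23) in DKO against WT, and -0.89 (SE 0.20) in DKO against IL10RAKO. Another transglutaminase, *Tgm2*, rose (means of 237.5 ± 66.9, 1789 ± 316 and 1679 ± 206 CPM in the same order), with log2 fold changes of 2.91 (SE 0.22, adjusted p = 1.41e-06) and 2.82 (SE 0.21, adjusted p = 1.47e-06, edgeR quasi-likelihood test), while *Tgm1* did not pass.

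*Fcna* encodes ficolin-A, a lectin that starts the lectin pathway of complement, and lies at chr2:25624666-25628030. WT mice had 42.1, 39.6, 44.7 and 44.4 CPM. The IL10RAKO values were 1.04, 0.187, 1.37 and 2.25 CPM, and 3 reads gave the value of mouse 2. The DKO values were 0.828, 0.996, 0.843 and 0.643 CPM. The DKO mice were close together and fell inside the spread of the IL10RAKO mice. The means were 42.7 ± 2.36, 1.21 ± 0.851 and 0.828 ± 0.145 CPM (SD, n = 4 each), and the log2 fold changes against WT were -5.13 (SE 0.44) and -5.68 (SE 0.46). The other mouse ficolin, *Fcnb*, a gene of myeloid precursors and neutrophils, had no read in any WT mouse and rose to 9 to 27 reads in each DKO mouse, at least 4.89-fold higher than a WT floor of 3 reads per library, while the IL10RAKO mice had 0 to 14 reads, at least 2.00-fold higher (adjusted p = 0.0107 and 0.0345, edgeR quasi-likelihood test). The proteases that ficolins activate, *Masp1* and *Masp2*, did not pass.

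*Selenop* encodes the plasma protein that carries selenium between tissues, and lies at chr15:3268547-3280508. The WT levels were 1142, 1402, 1625 and 1613 CPM. IL10RAKO mice had 495.5, 340.9, 731.4 and 631.9 CPM. DKO mice had 267.2, 360.0, 323.0 and 477.7 CPM. All WT mice were above all others, and the IL10RAKO and DKO mice overlapped between 340.9 and 477.7 CPM. The means were 1446 ± 227, 549.9 ± 170 and 357.0 ± 89.0 CPM (SD, n = 4 each), so that *Selenop* kept 38.03% of the WT level in IL10RAKO and 24.7% in DKO, the largest share among the 10 genes. The log2 fold changes against WT were -1.39 (SE 0.24) and -2.02 (SE 0.24). The gene *Ccdc152*, on the opposite strand, shares 15.4% of its exonic bases. Of the receptors that take up selenoprotein P, *Lrp8* rose (6.47 ± 3.95, 16.8 ± 6.65 and 20.2 ± 5.27 CPM; log2 fold changes 1.38, SE 0.41, adjusted p = 0.0327, and 1.65, SE 0.41, adjusted p = 0.0117, edgeR quasi-likelihood test), the first of which did not pass with library totals, and *Lrp2* was at or near 0. The selenium enzymes *Gpx1* and *Gpx4* did not pass.

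*Gas6* encodes a ligand of the TAM receptors AXL, MERTK and TYRO3, by which macrophages engulf dying cells, and lies at chr8:13465374-13494490. WT mice had 208.0, 248.5, 254.4 and 242.2 CPM. IL10RAKO mice had 14.6, 5.67, 38.1 and 24.9 CPM. DKO mice had 13.5, 18.0, 14.6 and 21.9 CPM. The IL10RAKO mice spread widely, from mouse 2 below to mouse 7 above all DKO mice. The means were 238.3 ± 20.8, 20.8 ± 14.0 and 17.0 ± 3.77 CPM (SD, n = 4 each), and the log2 fold changes against WT were -3.51 (SE 0.42) and -3.81 (SE 0.43). *Pros1*, which encodes protein S, the other TAM ligand, fell from a WT mean of 77.8 ± 9.94 CPM, with IL10RAKO at 30.8 ± 8.76 and DKO at 21.8 ± 6.04 (log2 fold changes -1.34, SE 0.23, adjusted p = 0.00118, and -1.83, SE 0.23, adjusted p = 9.07e-05, edgeR quasi-likelihood test). Neither of the tested TAM receptors passed as lower. *Axl* was at 652.2 ± 72.8, 665.7 ± 218 and 722.7 ± 281 CPM and did not pass in either comparison (adjusted p = 0.958 and 0.761, edgeR quasi-likelihood test). *Mertk* was at 44.3 ± 12.9, 66.1 ± 15.6 and 87.1 ± 33.8 CPM and rose in DKO (log2 fold change 0.98, SE 0.31, adjusted p = 0.0386) but not past the test in IL10RAKO (0.58, SE 0.30, adjusted p = 0.226, edgeR quasi-likelihood test), the DKO call was lost with library totals, and the difference between these genotypes did not pass (0.40, adjusted p = 1, edgeR). *Tyro3* was at 2.33 ± 2.80 CPM in WT, lower on average elsewhere, and was not tested.

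The remaining genes act within the cell or its membrane. *Cbr2* encodes a carbonyl reductase and lies at chr11:120729489-120732114. WT mice had 105.1, 129.2, 120.0 and 147.0 CPM. IL10RAKO mice had 0.974, 0.685, 3.69 and 5.35 CPM. DKO mice had 0.442, 1.62, 0.703 and 1.68 CPM. IL10RAKO mice 7 and 8 were above all DKO mice and mice 1 and 2 were among them. The means were 125.3 ± 17.6, 2.68 ± 2.24 and 1.11 ± 0.632 CPM (SD, n = 4 each), and with log2 fold changes of -5.54 (SE 0.55) and -6.79 (SE 0.60) against WT, *Cbr2* had the lowest estimate of the 10 genes in both genotypes. The related reductases *Cbr1*, *Cbr3* and *Cbr4* did not pass in any comparison.

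*Pmp22* encodes a membrane protein best known from myelin and lies at chr11:63128982-63159547. WT mice had 42.1, 66.2, 87.8 and 85.8 CPM. IL10RAKO mice had 3.90, 4.24, 5.82 and 4.56 CPM. DKO mice had 2.65, 2.74, 4.08 and 5.73 CPM. WT mouse 4 was the lowest of its group, and the IL10RAKO and DKO mice overlapped. The means were 70.5 ± 21.3, 4.63 ± 0.837 and 3.80 ± 1.45 CPM (SD, n = 4 each), and the log2 fold changes against WT were -3.92 (SE 0.31) and -4.21 (SE 0.31). Of the related genes *Emp1*, *Emp2* and *Emp3*, *Emp1* fell in both genotypes (102.4 ± 42.4, 16.8 ± 13.6 and 9.22 ± 2.32 CPM). Its log2 fold changes were -2.60 (SE 0.50, adjusted p = 0.00254) and -3.47 (SE 0.52, adjusted p = 0.000342, edgeR quasi-likelihood test). *Emp2* passed as lower in DKO and not in IL10RAKO, but it did not pass between these genotypes, whose mice overlapped. *Emp3* did not pass, but with library totals it passed as lower in both genotypes (adjusted p = 0.0328 and 0.0133, edgeR quasi-likelihood test).

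*Cavin1* encodes a coat protein of caveolae, the small pits of the cell membrane, and lies at chr11:100956733-100970887. WT mice had 15.9, 19.0, 25.8 and 22.0 CPM. IL10RAKO mice had 1.53, 0.810, 1.62 and 0.925 CPM. DKO mice had 1.49, 1.43, 2.95 and 1.98 CPM. Here DKO mice 12 and 14 were above all IL10RAKO mice, and DKO mice 3 and 9 were among them. The means were 20.7 ± 4.25, 1.22 ± 0.413 and 1.96 ± 0.703 CPM (SD, n = 4 each), and the log2 fold changes against WT were -4.07 (SE 0.35) and -3.40 (SE 0.34). The 4 other caveola genes on the partner list fell in both genotypes. Log2 fold changes, IL10RAKO first, were -3.26 and -2.59 for *Cav1* (adjusted p = 0.00106 and 0.00387), -1.38 and -1.06 for *Cav2* (0.00137 and 0.00683), -4.57 and -4.41 for *Cavin2* (0.0019 and 0.00196) and -2.84 and -2.76 for *Cavin3* (0.00173 and 0.00176, edgeR quasi-likelihood test). The 4 WT mice spread widely for *Cav1* (9.1 to 73.8 CPM) and *Cavin2* (5.2 to 52.1 CPM), and less for *Cav2* and *Cavin3*.

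**Figure D2:**
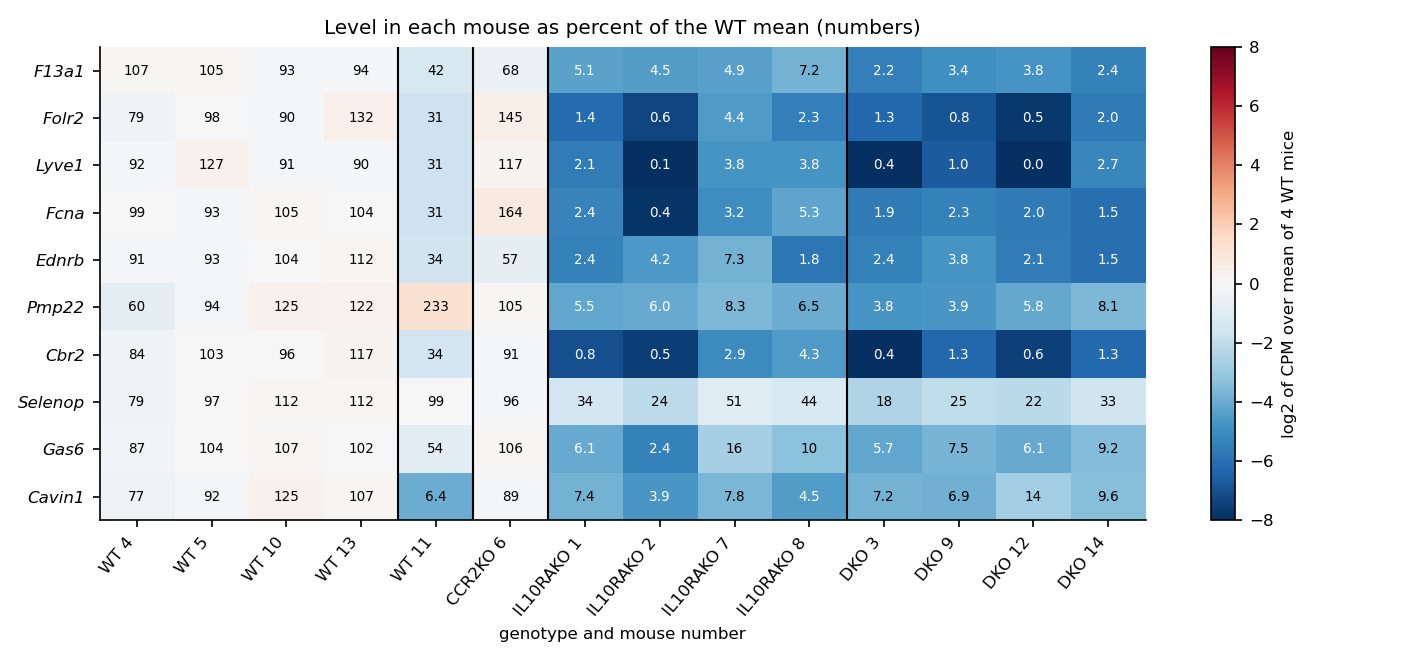
Level of each gene in each of the 14 libraries as a percentage of the mean of the 4 WT mice in the comparison (numbers), coloured by the log2 of that ratio. The columns are ordered as WT, WT mouse 11, CCR2KO mouse 6, IL10RAKO and DKO; the IL10RAKO and DKO columns are blue in all rows and palest for *Selenop*.

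Individual mice differed in the same direction for many of the genes. Within IL10RAKO, mouse 7 was the highest for 7 of the 10 genes and mouse 2 the lowest for 8, and the geometric mean of the 10 genes relative to the WT mean ranged from 1.92% in mouse 2 to 7.11% in mouse 7. Within DKO it ranged from 2.24% in mouse 12 to 4.03% in mouse 14, which lies inside the IL10RAKO range. WT mouse 4 was the lowest WT mouse for 7 of the 10 genes, at a geometric mean of 84.6%. The median coefficient of variation of the 10 genes was 14.9% in WT, 64.8% in IL10RAKO and 36.9% in DKO. The knockout levels rest on fewer reads, down to 0 to 4 in single libraries for *Lyve1*, *Fcna* and *Folr2*, where counting error is larger.

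Between DKO and IL10RAKO mice, 9 of the 10 genes had a lower mean in DKO and *Cavin1* a higher one, where 52.2% of tested genes were lower. The median log2 fold change was -0.67 (range -1.26 to 0.67) beside -0.01 over all tested genes. None of the 10 passed an adjusted p-value of 0.05 in the edgeR quasi-likelihood test, where 0.0457% of the tested genes did (6 of 13136), 3 of the 10 passed at an unadjusted p-value of 0.05, as did 2.95% of the tested genes, and DESeq2 called 1, *F13a1*. The mice of the genotypes overlapped for 9 of the 10 genes, and all DKO mice were below all IL10RAKO mice for 1.28% of tested genes. The 95% confidence intervals of the log2 difference ran from -1.32 to -0.46 for *F13a1*, -2.44 to -0.08 for *Cbr2* and -1.13 to -0.12 for *Selenop*. Those of the other 7 contained 0, and reached as low as -2.86 for *Lyve1* and as high as 1.38 for *Cavin1*. A 2-fold fall lay inside the intervals of all 10 genes except *Pmp22* (-0.90 to 0.34) and *Cavin1*. A 2-fold rise lay inside that of *Cavin1* alone (-0.04 to 1.38), and the next highest upper limit was 0.54 for *Gas6*. Leaving out IL10RAKO mouse 7 moved the median over the 10 genes to -0.35 and moved *Gas6* from -0.30 to 0.20 and *Folr2* from -0.91 to -0.26. Leaving out IL10RAKO mouse 2 moved the median to -0.85, and leaving out DKO mouse 14 moved *Lyve1* from -1.20 to -2.37. As the genes were chosen partly for this order of genotypes, the count of 9 in 1 direction is a description.

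**Figure D3:**
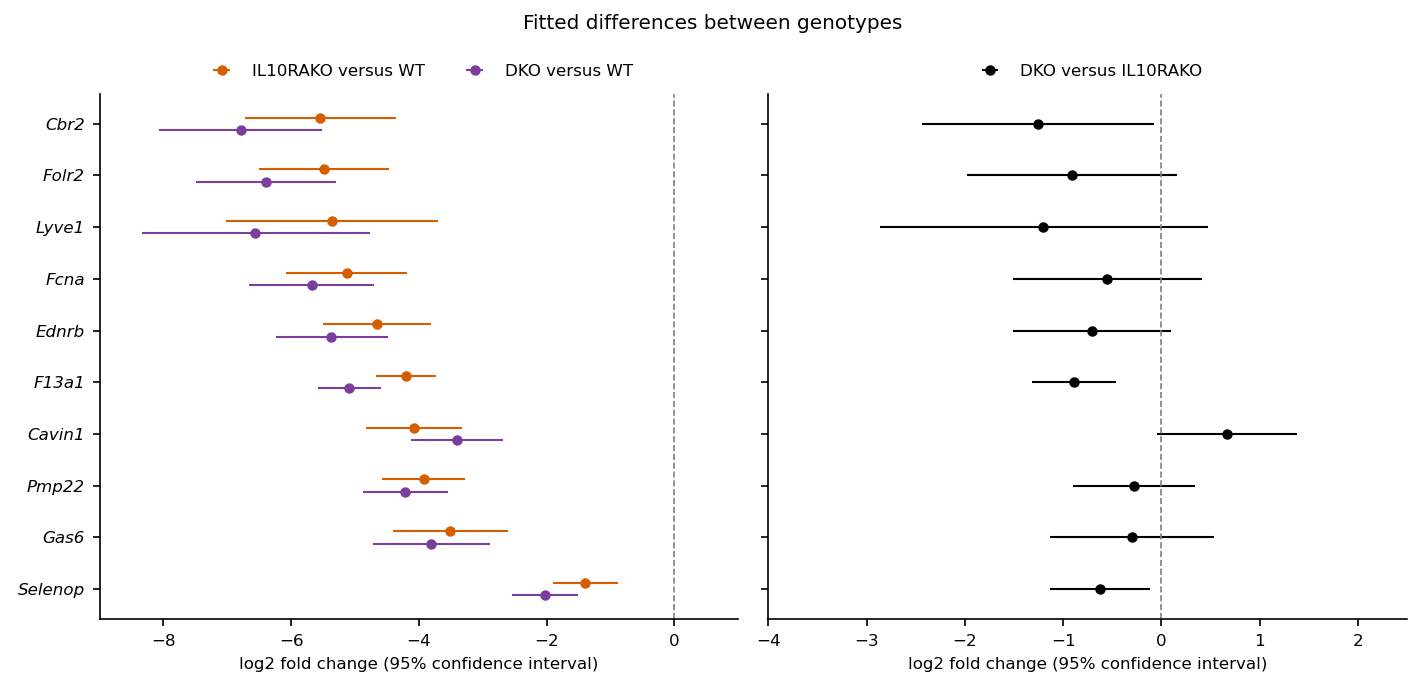
Fitted log2 fold changes of the 10 genes with 95% confidence intervals, for IL10RAKO and DKO against WT (left) and for DKO against IL10RAKO (right). On the left all estimates lie between -6.79 and -1.39, and on the right between -1.26 and 0.67 with wide intervals for *Lyve1*, *Cbr2* and *Folr2*.

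In the CCR2KO mouse, all 10 genes were above every IL10RAKO and DKO mouse. This single library was within the range of the 4 WT mice for 6 genes, above it for *Folr2* (87.2 CPM) and *Fcna* (69.8 CPM), and below it for *F13a1* (234.5 CPM) and *Ednrb* (54.7 CPM). It has no replicate, so a difference from WT cannot be judged. WT mouse 11 was below the other 4 WT mice for 8 of the 10 genes, with *F13a1* at 144.3 CPM, *Folr2* at 18.9 and *Lyve1* at 31.6, within their range for *Selenop* (1437 CPM) and above it for *Pmp22* (164.5 CPM). It was still above every IL10RAKO and DKO mouse for 9 of the 10, the exception being *Cavin1* at 1.32 CPM from 18 reads. This library had the fewest reads (12153000) and a read on 11670 genes, against 13485 to 15402 genes in the other 4 WT mice. Its epithelial marker genes summed to 2412 CPM, against 43.4 to 938.1 in those mice. The sums of B cell genes (92.4 against 394.5 to 1124) and dendritic cell genes (1.685 against 20.83 to 105.5) were lower. What these differences do to its levels was not tested.

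Other genes of resident-type macrophages moved mostly the same way. Of 20 such genes on a list drawn up with earlier results of these data known, 19 were tested, and 14 fell and 2 rose in IL10RAKO, with the same counts in DKO, where 7.10% and 9.22% of all tested genes fell and 8.70% and 9.23% rose. Their median log2 fold change was -2.09 in IL10RAKO and -2.11 in DKO (-0.07 and -0.06 over all tested genes). *Cd163*, the scavenger receptor for haemoglobin, fell from a WT mean of 99.7 ± 39.6 CPM, with IL10RAKO at 3.88 ± 3.18 and DKO at 1.499 ± 0.725 (log2 fold changes -4.66, SE 0.54, adjusted p = 4.81e-05, and -6.08, SE 0.59, adjusted p = 8.32e-06, edgeR quasi-likelihood test). *Ltc4s*, which makes leukotriene C4, had log2 fold changes of -2.15 and -2.39, *Pf4*, a chemokine, of -2.81 and -3.50, and *Wwp1*, a ubiquitin ligase, of -1.88 and -2.02 (adjusted p from 2.53e-05 to 0.000342, edgeR quasi-likelihood test). The chemokine gene *Ccl7* (-2.59 and -3.95) and the lipid transfer gene *Pltp* (-1.37 and -1.95) fell as well (adjusted p = 0.000664 and 3.09e-05 for *Ccl7* and 0.000512 and 2.79e-05 for *Pltp*, edgeR quasi-likelihood test). The mannose receptor *Mrc1* and the transcription factor gene *Maf* were among the 14.

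*Ccl24*, which encodes an eosinophil chemokine, was the only listed gene of this kind that passed between DKO and IL10RAKO. Its mean was higher in DKO than in IL10RAKO, which among the 10 genes held for *Cavin1* alone. WT mice had 29.1, 23.0, 20.5 and 48.7 CPM. IL10RAKO mice had 1.11, 1.68, 1.57 and 2.51 CPM. DKO mice had 7.40, 8.65, 8.15 and 10.5 CPM. DKO mice lay above all IL10RAKO mice and below all WT mice, with a log2 fold change against IL10RAKO of 2.33 (adjusted p = 0.00906, edgeR quasi-likelihood test) and against WT of -1.80 (adjusted p = 0.000731). The genes that rose in both genotypes were *Ninj1*, a membrane rupture protein (log2 fold changes 1.13 and 1.07, adjusted p = 0.00077 and 0.00103), and *Clec4n*, the fungal receptor Dectin-2 (1.26 and 1.59, adjusted p = 0.00439 and 0.000788, edgeR quasi-likelihood test). *Timd4* and *Ccl8* were among those that passed in neither, and were named after their values were seen. *Timd4*, a receptor for dying cells that marks long-lived gut macrophages, had means of 15.7 ± 1.38, 28.6 ± 27.2 and 23.5 ± 12.7 CPM in WT, IL10RAKO and DKO mice (adjusted p = 0.258 and 0.443 against WT, edgeR quasi-likelihood test), and WT mouse 11 had no read on it.

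Of 33 genes that act with the 10 (ligands, receptors, partners and relatives named above), 27 were tested, and 6 fell and 4 rose in IL10RAKO and 7 fell and 5 rose in DKO, where 15.8% and 18.5% of all tested genes passed in either direction. None passed between DKO and IL10RAKO, and 2 did at an unadjusted p-value of 0.05. Their median log2 fold change was -0.21 and -0.31 against WT, values that were the same with *Fcnb* at its bound.

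**Figure D4:**
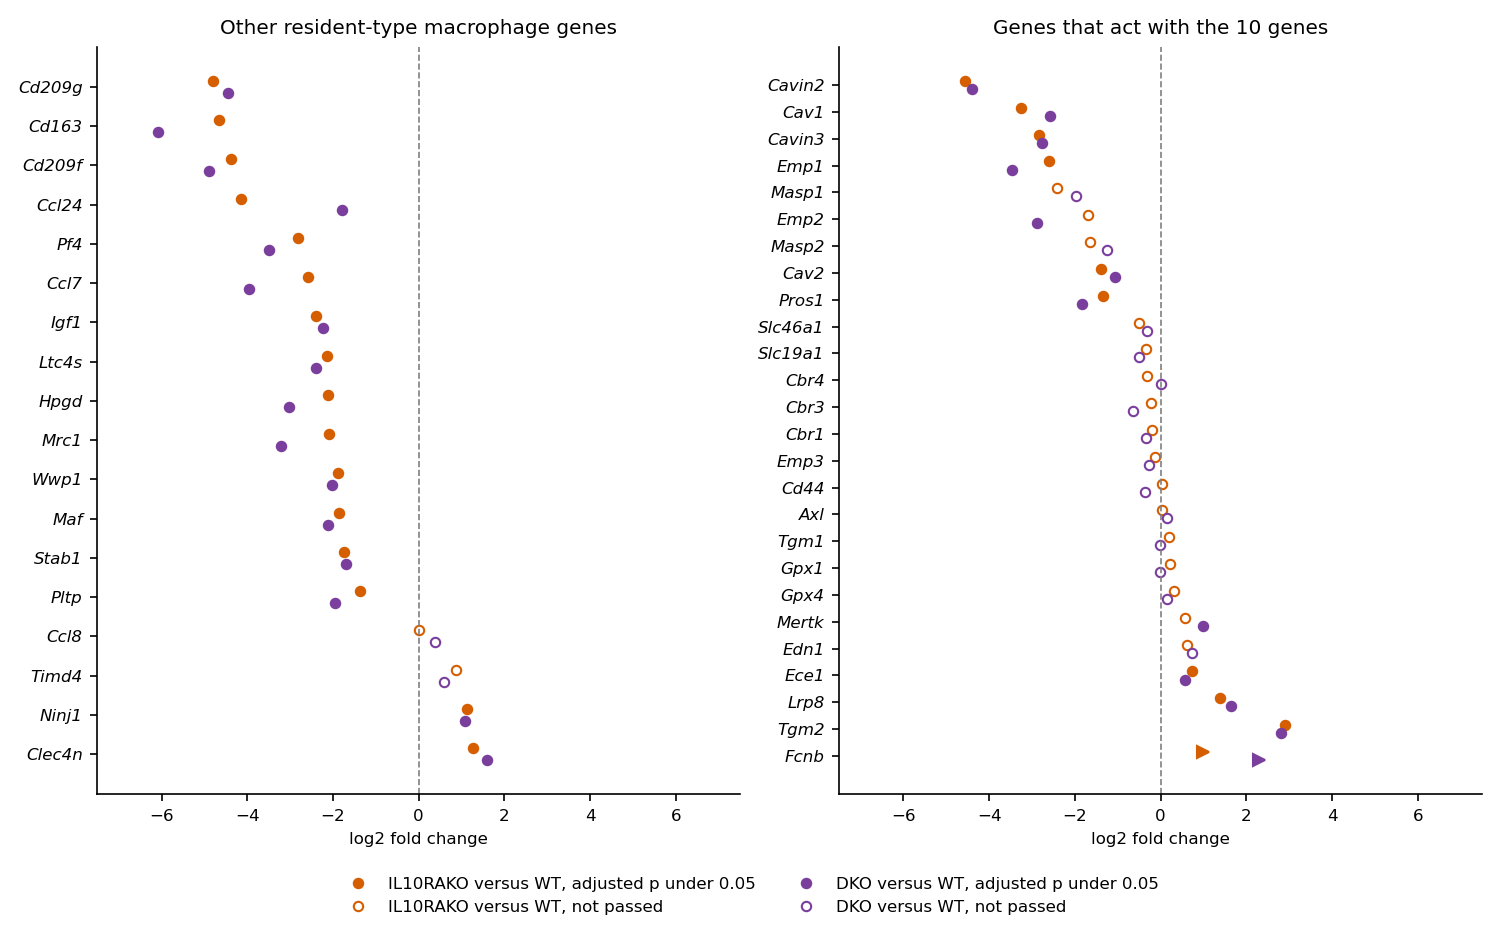
Log2 fold change against WT of tested genes of other resident-type macrophages (left) and of tested partner genes (right), in IL10RAKO and DKO. Filled points passed an adjusted p-value of 0.05, open points did not, and the triangles of *Fcnb* are lower bounds because no WT mouse had a read; on the left 14 genes in each genotype are filled to the left of 0, and on the right *Cavin2* is the lowest in both genotypes and *Tgm2* has the highest estimates apart from the bounds.

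Across the 12 libraries, each of the 10 genes had a Pearson correlation between 0.94 (*Cavin1*) and 0.991 (*Folr2*) with the mean standardised log2 CPM of the other 9. Among 13126 other genes, those most like that mean profile were *Ltc4s* (0.987), *Dpysl3* (0.983), *Stard8* (0.981), *Pf4* (0.979), *Wwp1* (0.977), *Cd163* (0.977), *Plekhg5* (0.976), *Nbl1* (0.975), *Pdlim1* (0.973) and *Nfic* (0.973). The 12 points fall into WT and knockout libraries, so these values describe that split and the small differences within it and are not tested. Their log2 fold changes were not alike in size, and reached -4.93 and -6.16 for *Dpysl3* but -1.11 and -1.20 for *Nfic*, in IL10RAKO and DKO.

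Markers of other cells moved with genotype as well. All 7 genes of a fibroblast list (*Pdgfra*, *Col1a1*, *Col1a2*, *Col3a1*, *Dcn*, *Lum* and *Dpt*) fell in both genotypes, with median log2 fold changes of -3.65 and -3.78, and in WT, IL10RAKO and DKO mice their sums ranged over 296.5 to 583, 15.9 to 55.2 and 16.3 to 67.2 CPM. Of 4 tested smooth muscle genes, 3 fell in IL10RAKO and 4 in DKO (sums of 24.7 to 158, 5.01 to 11.5 and 3.37 to 9.21 CPM), and of 5 tested blood endothelial genes, 2 and 3 fell (sums of 80.3 to 258, 64.7 to 106 and 51.9 to 89.6 CPM). As fibroblasts, muscle and endothelium also express genes such as *Cavin1*, *Gas6* and *Ednrb*, and no part of the sorted RNA is assigned to a cell, the part of these cells in the results was not tested. In the CCR2KO mouse the fibroblast sum was above the 4 WT mice (694.7 CPM), as were *Folr2* and *Fcna*. There *F13a1* and *Ednrb* were below them and the other 6 genes were within their range. In WT mouse 11 the fibroblast sum was below the same 4 WT mice (270.9 CPM), as were 8 of the genes described here. *Selenop* was within their range in that library and *Pmp22* was above it. Each is a single library, and a link between the fibroblast sum and these genes was not tested.

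For *Lyve1*, which lymphatic endothelium also expresses, the listed lymphatic genes *Prox1* and *Mmrn1* had no read in WT mice 4 and 5, where *Lyve1* was at 93.2 and 128.8 CPM. They had 139 and 2105 reads in WT mouse 10 and 137 and 197 in WT mouse 13, where *Lyve1* was at 92.9 and 92.0 CPM. In the CCR2KO mouse both were at 0 with *Lyve1* at 119.0 CPM. *Flt4* had 4 to 249 reads (0.191 to 10.3 CPM) in the 4 WT mice and 23 in the CCR2KO mouse. Its highest level exceeded the sums of all 5 lymphatic genes in WT mice 4 and 5 (1.72 and 3.52 CPM). That level therefore lay in WT mouse 10 or 13, where *Prox1* and *Mmrn1* were read. *Pdpn* was even, with 29 to 35 reads in the 4 WT mice and 26 in the CCR2KO mouse, and *Ccl21a* had no read. Neither *Flt4* nor *Pdpn* passed against WT, and a part of lymphatic cells in the *Lyve1* levels was not tested. Sums over the 5 lymphatic genes spanned 1.72 to 105 CPM among WT mice, against 2.85 to 8.03 for IL10RAKO and 3.59 to 9.14 for DKO mice. For *Pmp22*, also a gene of Schwann cells, the 5 glial genes summed to at most 12.9 CPM in the 12 libraries, with up to 3 of them at 0 in a library. Of 4 tested neutrophil genes, 3 rose in both genotypes, with WT sums of 1.67 to 7.92 CPM, IL10RAKO sums of 5.26 to 94.1 and DKO sums of 24.4 to 48.1. None of the 5 epithelial, 4 T cell or 4 B cell genes tested passed against WT. Of 2 tested mast cell genes, 1 rose in both genotypes, and 2 and 1 of 4 dendritic cell genes rose in IL10RAKO and DKO.

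**Figure D5:**
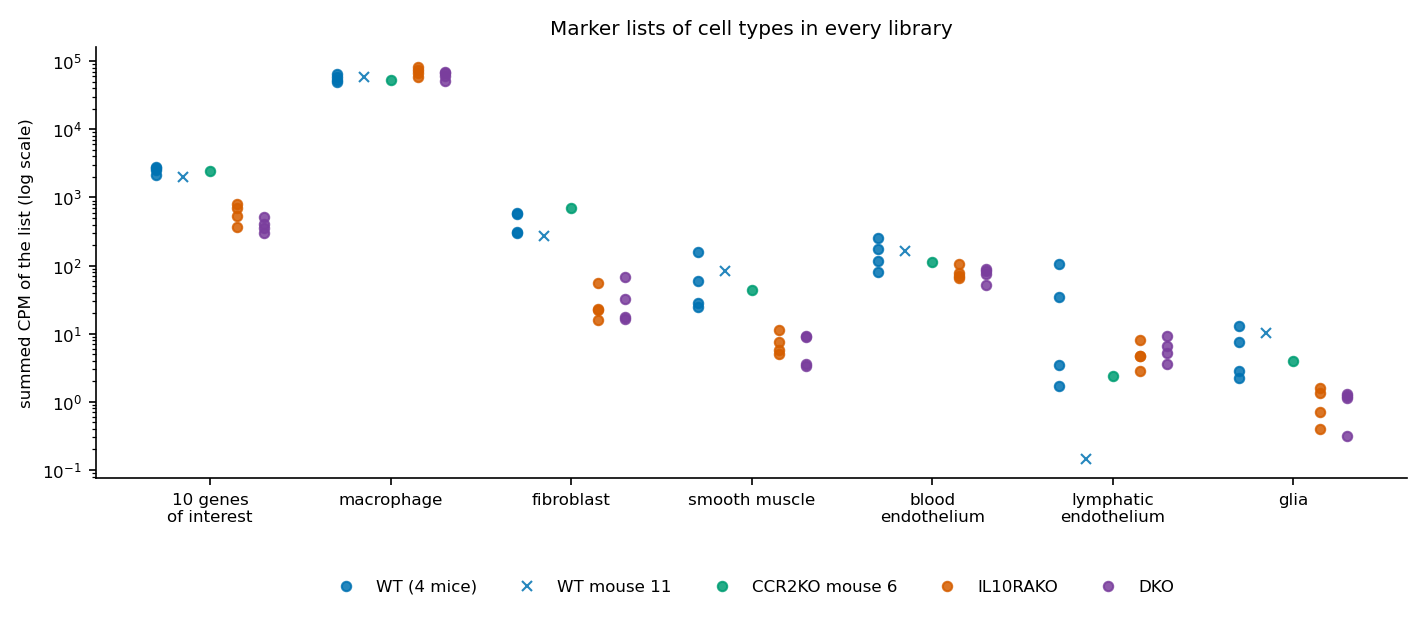
Summed CPM of the 10 genes and of marker lists in every library, on a log axis, by genotype. The macrophage sums of all libraries lie between 49790 and 83030 CPM, while the sums of the 10 genes and of the fibroblast genes are lower in all IL10RAKO and DKO libraries than in the WT and CCR2KO libraries.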

How the data were processed

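Sorted colonic macrophages were sequenced by the authors from SmartSeq v4 cDNA as paired-end reads. Per the labels and methods, reads were demultiplexed with bcl2fastq 2.20 and aligned to mm10 and counted with STAR 2.5.1b. The deposited counts are whole numbers of reads, not normalized, and cover 24982 genes in 14 libraries. The annotation, strand setting and handling of multiply aligned reads are not given in the sources used here, so reads of overlapping genes may be shared. The authors also deposited edgeR 3.34.0 pseudocounts, a score per gene for 12 libraries, which was used only to see which libraries they kept. All per-sample count columns were used (0 left out).

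Counts of the 12 libraries (3 genotypes, 4 mice each) were fitted together in R 4.3.3 with edgeR 4.0.16 (limma 3.58.1): filterByExpr (minimum count 10), TMM, glmQLFit with the deviance of edgeR 3, glmQLFTest, and Benjamini-Hochberg adjustment over 13136 genes in each of 3 comparisons, at 0.05. Standard errors and 95% intervals come from that fit. CCR2KO mouse 6 and WT mouse 11 were scaled to the same level by TMM over 14 libraries and entered no test. A floor of 3 reads was used for libraries at 0, and it covers counting error only, as reads carried no molecular identifiers. Totals were 12153000 to 21216468 reads per library. In none of the 18 pairs of the same genotype were the counts within sampling noise (chi-square per degree of freedom 30.4 or more), and the labels name each library as its own sample, so p-values measure the spread between these samples. Correlations used log2 CPM with a prior count of 2.

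The 10 genes and all gene lists were chosen with earlier results of these data known. The text may name the 10 genes and any gene of the resident-type and partner lists, with values for at most 5 per list and direction with the smallest adjusted p-values among those that passed in a comparison, and for receptors and ligands of the 10, the targeted genes and the 10 genes most like them. Positions and exonic lengths are from GENCODE vM21 (GRCm38, the mm10 assembly) and upstream sequence from RefSeq (GRCm38.p6). Lists were described by counts and medians only, and 2 listed genes that count there are not reported here by name or drawn. Alternatives were DESeq2 1.42.0, RLE size factors, library totals without TMM, no filter, 13 libraries with WT mouse 11, fits of only the 2 genotypes compared, the bias-adjusted deviance of edgeR 4, and leaving out each mouse. Figures used Python 3.11.15, pandas 2.3.3 and matplotlib 3.10.9.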

Additional observations from a re-analysis of the deposited data

Results flagged for a closer look

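Of 30 sets of 4 mice (10 genes in 3 genotypes), 1 held a mouse far from the other 3: *Lyve1* in WT mouse 5 was at 128.8 CPM, with the others between 92.0 and 93.2. The limit used, Dixon's 95% critical value for a gap, is passed by chance in about 1 in 20 sets. In the libraries outside the comparisons, CCR2KO mouse 6 had *Folr2* at 87.2 CPM and *Fcna* at 69.8 CPM, above the 4 WT mice (47.8 to 79.3 and 39.6 to 44.7), and WT mouse 11 had *Pmp22* at 164.5 CPM, above their 42.1 to 87.8. Each is a single library, and none of these differences was tested.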

How the results depend on the processing

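All 10 genes were called lower than WT in IL10RAKO and in DKO under each of the 19 alternatives, with medians over the 10 genes of -4.74 to -4.33 in IL10RAKO; the genes were chosen on these contrasts, so this is no sign of stability. The median in DKO against WT was -5.23 and moved to -5.49 with library totals without TMM, -5.03 with WT mouse 11 added, and -5.40 to -5.08 when each mouse was left out. Between DKO and IL10RAKO, 6 genes were called, 24 with DESeq2 and 4 to 10 with a mouse left out (10 without IL10RAKO mouse 2); of the 10 genes, 0 were called except by DESeq2, which called 1 (*F13a1*, log2 fold change -0.88). In that comparison *Gas6* was at -0.30 and ranged from -0.61 to 0.20 with a mouse left out, the latter without IL10RAKO mouse 7. With library totals the median of all tested genes fell to -0.38 in IL10RAKO and -0.32 in DKO, and the share of calls that were higher went from 55.1% to 23.8% and from 50.0% to 25.9%; the causes were not tested. Of the 10 and 12 partner genes called in IL10RAKO and DKO, 8 and 10 kept their call with library totals, and *Ece1* lost it in both, *Lrp8* in IL10RAKO and *Mertk* in DKO. Under the same setting *Emp3* gained a call as lower in both genotypes and *Cd44* in DKO. Levels near 3 reads limit *Lyve1*, *Fcna* and *Folr2* in the knockout mice. No paired analysis was possible because the genotypes hold different mice and the labels give no number, litter or batch that they share.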
